A study of Mus musculus with 8 samples.

Results

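The canonical transient receptor potential (TRPC) channels Trpc1, Trpc2, Trpc4, Trpc5, Trpc6 and Trpc7 were examined in RNA-seq counts of the mouse cortex at postnatal day 1 (P1). These 6 genes were taken by symbol from the 48709 genes of the deposited counts. Trpc5 is the exception to a choice by family name alone, since it was selected on its lower counts in these same samples, so its difference is given as a description with no test. Of the 6 genes, 5 had counts and passed the filter on low counts, among 16287 genes tested, and Trpc2 had no count in any library.

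The study compared 4 control and 4 dcKO_Nex-Cre cortices, with 1 library each, to follow the loss of the BAF chromatin remodeling complex in neurons. The dcKO_Nex-Cre mice carry floxed BAF155 (Smarcc1) and BAF170 (Smarcc2) genes and Nex-Cre, which acts in postmitotic projection neurons, and both genes remain intact in cells without Cre activity. The labels give only the titles control or mutant, the tissue and the age, and Nex-Cre and the following genotypes come from the study's methods. Controls were heterozygous (BAF155fl/+ and BAF170fl/+) and Cre negative, all mice had a C57BL6/J background, and no group carries Nex-Cre alone. An effect of the Nex-Cre allele and of the deletion therefore cannot be told apart. The labels do not say whether the samples are separate animals, so p-values measure the spread between these samples.

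TRPC channels are tetramers in the plasma membrane that let calcium and sodium into the cell, mostly after receptors coupled to Gq proteins have activated phospholipase C. Trpc4 and Trpc5 are closely related and assemble with each other and with Trpc1, whereas Trpc6 and Trpc7 belong to a subfamily opened by diacylglycerol. In neurons, Trpc5 is known for slowing neurite extension at the growth cone, and Trpc2 is known from the vomeronasal organ, where it carries the response to pheromones.

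Positions are those of GENCODE M21 on GRCm38. Trpc5 (ENSMUSG00000041710) lies on the minus strand of chromosome X from 144381671 to 144688180, spans 306510 bases and is the only X-linked member. Trpc4 (ENSMUSG00000027748) lies on the plus strand of chromosome 3 from 54156035 to 54318471. Trpc1 (ENSMUSG00000032839) lies on the minus strand of chromosome 9 from 95705082 to 95750375, and Trpc6 (ENSMUSG00000031997) lies on the plus strand of the same chromosome from 8544142 to 8680741. Trpc7 (ENSMUSG00000021541) lies on the minus strand of chromosome 13 from 56773113 to 56895993, and Trpc2 (ENSMUSG00000100254) lies on the plus strand of chromosome 7 from 102083116 to 102096396. All 6 are protein-coding genes, with 11 to 13 exons in the longest transcript.

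The 250 bases before the start of Trpc5 are shown because it is the member with the lowest level relative to the control. They cover chrX:144688181-144688430 of GRCm38, read 5′ to 3′ on the minus strand from RefSeq, with each CG dinucleotide in capitals.
Trpc5: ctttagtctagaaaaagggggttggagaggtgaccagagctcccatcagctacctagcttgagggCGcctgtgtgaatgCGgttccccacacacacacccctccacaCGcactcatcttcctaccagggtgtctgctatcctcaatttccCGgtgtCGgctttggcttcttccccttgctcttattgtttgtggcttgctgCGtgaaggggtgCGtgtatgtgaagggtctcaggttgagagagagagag
These bases hold 7 CG dinucleotides. In the 300-base window that also takes in the first 50 bases of the transcript, Trpc5 had 9 CG dinucleotides and 55.7% GC, and 54.2% of 32851 promoters of that length had fewer CG dinucleotides. The same window held 22 in Trpc1, 17 in Trpc6, 16 in Trpc4, 4 in Trpc2 and 3 in Trpc7. All 6 promoters were matched by symbol, and base composition was not compared with the measured differences.

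Total counts per library ranged from 17958641 to 35191912, and counts are given as CPM, which scales each library to a common size after edgeR's TMM scaling of the library sizes. Smarcc1 kept 69.2% and Smarcc2 56.9% of the control mean, with no overlap between the groups. In the names of the files, 6 libraries had lane tag 2, the 4 of the control and the first 2 dcKO_Nex-Cre replicates, whereas lane tag 8 held dcKO_Nex-Cre replicates 3 and 4 and no control. Control replicate 2 and dcKO_Nex-Cre replicate 2 had high Xist, at 1877 and 917 CPM against at most 8.43 CPM in the other 6 libraries. The Y-linked gene Ddx3y was at 4.21 CPM (77 counts) in this control library and 0.268 CPM (7 counts) in this dcKO_Nex-Cre library, against 55.1 to 81.6 CPM in the others. Summed levels of 8 markers of cortical projection neurons were 1564 to 1839 CPM in control and 1319 to 1518 CPM in dcKO_Nex-Cre libraries. Without Neurod6, the gene at which Nex-Cre was inserted, they were 980 to 1088 and 923 to 1107 CPM, and none of these 7 genes passed the test described below for the members. Markers of oligodendrocyte precursors summed to 173 to 252 and 252 to 308 CPM and those of microglia to 105 to 121 and 109 to 146 CPM, with 1 gene called higher in each list. Markers of radial glia and astrocytes summed to 2286 to 2715 and 1854 to 2375 CPM, with none called. The part of these cell types in the results was not tested.

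The members were first ordered by their level per length. TPM divides the counts by exon length before scaling, so that genes can be compared with each other within a library. Trpc4 had the highest control level at 17.0 ± 1.83 TPM (SD, n = 4), followed by Trpc1 at 13.5 ± 1.502 TPM (SD, n = 4). Trpc5 came next at 9.36 ± 1.67 TPM (SD, n = 4). Trpc7 at 4.84 ± 0.818 TPM (SD, n = 4) and Trpc6 at 1.01 ± 0.217 TPM (SD, n = 4) were the lowest of the members with counts. Within a library, Trpc4 was above Trpc1, Trpc1 above Trpc5, and Trpc7 above Trpc6 in 8 of 8 libraries. Trpc5 was above Trpc7 in 7 of 8 libraries, the exception being dcKO_Nex-Cre replicate 2. The control ranges of Trpc4 and Trpc1 overlapped, since the lowest Trpc4 level was 14.5 TPM and the highest Trpc1 level 14.9 TPM, whereas all other neighbours in this order were separate in the control. With the length of the longest transcript the order was the same, but the control mean of Trpc4 was 30.7 TPM and that of Trpc1 18.5 TPM.

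**Figure D1:**
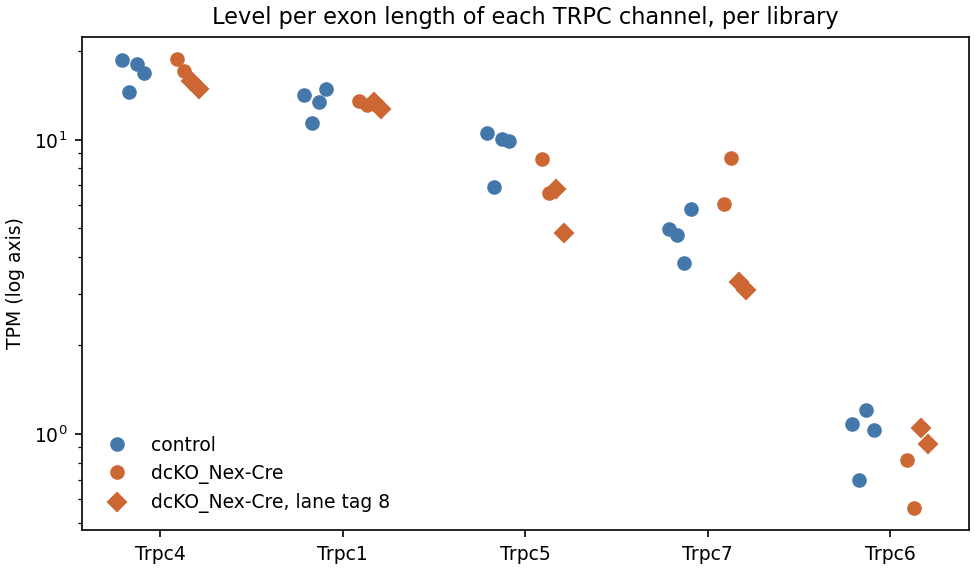
Level of each TRPC channel with counts in TPM (log axis), with 1 point per library, 4 control and 4 dcKO_Nex-Cre, and diamonds for lane tag 8. The channels are in order of their control mean, from Trpc4 at 17.0 TPM to Trpc6 at 1.01 TPM, and the 2 groups overlap in each of them.

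Trpc5 was lower in the dcKO_Nex-Cre cortex, at 67.9% of the control mean. Its level was 14.6, 10.7, 13.8 and 13.8 CPM in control replicates 1 to 4 and 11.2, 8.43, 8.996 and 7.24 CPM in dcKO_Nex-Cre replicates 1 to 4, from 129 to 387 counts per library. The groups overlapped through 1 pair, control replicate 2 and dcKO_Nex-Cre replicate 1, and the other 15 of 16 pairs had the lower value in the dcKO_Nex-Cre cortex. Group means of Trpc5 were 13.2 ± 1.73 CPM for the control and 8.97 ± 1.67 CPM for the dcKO_Nex-Cre cortex (SD, n = 4 each). The log2 fold change was -0.55 with a standard error of 0.15. In tissue RNA, fewer cells that express Trpc5 and less Trpc5 RNA per cell cannot be told apart.

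Because Trpc5 is X-linked, it was also read in the 6 libraries with low Xist. There the 3 control values lay from 13.8 to 14.6 CPM and the 3 dcKO_Nex-Cre values from 7.24 to 11.2 CPM, without overlap, and the log2 fold change was -0.61. This choice of libraries left out control replicate 2, the only control value that overlapped, so the separation follows in part from the choice. Both high-Xist libraries were below the mean of their own group. With lane tag 2 alone, Trpc5 had a log2 fold change of -0.42, and between the control and lane tag 8 it was -0.71. The part of the lane in the size of this difference was not tested.

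Trpc5os, an antisense gene at the Trpc5 locus, had 0 to 3 counts per library and shares no exon base with Trpc5. The library kit does not mark strand, but with no exon base shared in GENCODE M21, exon reads of these genes differ by position. Gm15071 and Mageb16-ps1, which also overlap the Trpc5 locus, had no count.

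**Figure D2:**
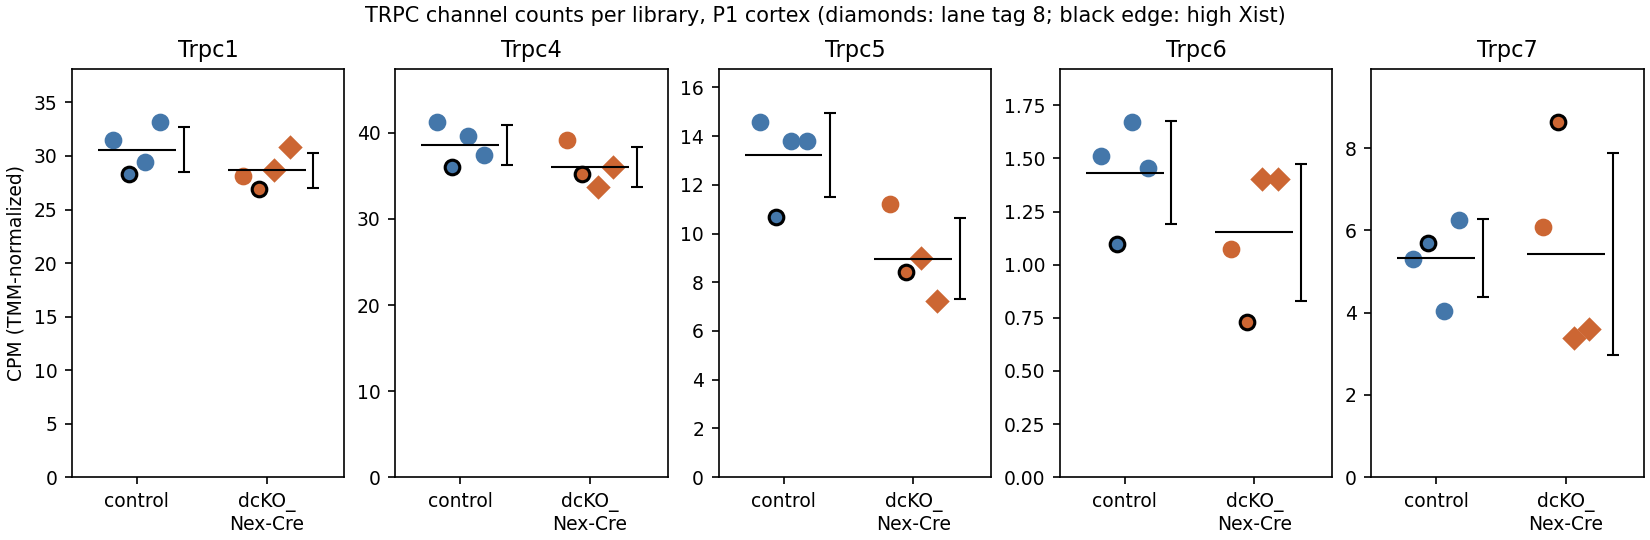
CPM of each TRPC channel with counts in the 4 control and 4 dcKO_Nex-Cre libraries, with 1 point per library, a line at the group mean and a bar of 1 SD. Diamonds mark lane tag 8 and black edges high Xist, and each panel has its own axis from 0. Trpc5 runs from 10.7 to 14.6 CPM in control and from 7.24 to 11.2 CPM in dcKO_Nex-Cre libraries, and Trpc7 has the widest dcKO_Nex-Cre spread relative to its mean.

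Trpc4, the closest relative of Trpc5, had 41.2, 36.1, 39.7 and 37.4 CPM in control replicates 1 to 4 and 39.2, 35.2, 33.7 and 35.98 CPM in dcKO_Nex-Cre replicates 1 to 4. The groups overlapped, with 3 of 4 dcKO_Nex-Cre libraries below the lowest control. Its log2 fold change was -0.10, with a 95% confidence interval of -0.27 to 0.07 (adjusted p = 0.592 from edgeR's quasi-likelihood test with Benjamini-Hochberg adjustment over all genes tested). The fitted -0.55 of Trpc5 has an error of its own and comes from a gene selected on its decrease. The difference between these genes was not tested.

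Trpc1, the subunit that joins both of them in the channel, had 31.5, 28.4, 29.4 and 33.1 CPM in control replicates 1 to 4 and 28.2, 26.9, 28.7 and 30.8 CPM in dcKO_Nex-Cre replicates 1 to 4. The groups overlapped, and 2 of 4 dcKO_Nex-Cre libraries were below the lowest control. The log2 fold change was -0.10, with a 95% confidence interval of -0.28 to 0.08 (adjusted p = 0.617 from edgeR). Trpc1 had the smallest dcKO_Nex-Cre spread relative to its mean of the 5 members, with an SD of 1.62 CPM at a mean of 28.6 CPM.

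The composition of the family was read from TPM, as a description, since it contains Trpc5. Trpc5 made up 20.3 ± 1.65% (SD, n = 4) of the summed TPM of the 5 members with counts in control and 15.6 ± 2.23% (SD, n = 4) in dcKO_Nex-Cre libraries. The ratio of Trpc4 to Trpc5 was 1.70 to 2.11 in control and 2.18 to 3.10 in dcKO_Nex-Cre libraries, and these ranges did not overlap. The ratio of Trpc1 to Trpc5 was 1.33 to 1.66 in control and 1.57 to 2.66 in dcKO_Nex-Cre libraries, where the ranges overlapped. The summed TPM of the family was 45.7 ± 5.09 (SD, n = 4) and 42.7 ± 5.18 (SD, n = 4), a difference smaller than the spread between libraries.

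Trpc6, a channel opened by diacylglycerol, was near the low end of what these libraries could resolve. It had 1.51, 1.09, 1.67 and 1.45 CPM in control replicates 1 to 4 and 1.07, 0.728, 1.40 and 1.40 CPM in dcKO_Nex-Cre replicates 1 to 4, from 19 to 40 counts per library. The groups overlapped, and the library with high Xist was the lowest of its group in both genotypes. The log2 fold change was -0.34, with a 95% confidence interval of -0.90 to 0.22 (adjusted p = 0.569 from edgeR), which holds both no change and the fitted value of Trpc5. With lane tag 2 alone it was -0.66 (adjusted p = 0.216 from edgeR).

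Trpc7, of the same subfamily, had nearly equal group means but spread widely in the dcKO_Nex-Cre cortex. It had 5.31, 5.69, 4.05 and 6.26 CPM in control replicates 1 to 4 and 6.09, 8.62, 3.38 and 3.59 CPM in dcKO_Nex-Cre replicates 1 to 4. The highest and the lowest of the 8 values both came from dcKO_Nex-Cre libraries, and the coefficient of variation was 17.6% in control and 45.4% in dcKO_Nex-Cre libraries. The log2 fold change was 0.04, with a 95% confidence interval of -0.58 to 0.65 (adjusted p = 0.963 from edgeR).

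The low Trpc7 values were those of lane tag 8. With lane tag 2 alone, Trpc7 had a log2 fold change of 0.47 (adjusted p = 0.213 from edgeR), and between the control and lane tag 8 it was -0.61 (adjusted p = 0.407 from edgeR). Markers of striatal neurons moved with Trpc7 across the libraries, and their part in its values was not tested. The summed level of Drd1, Drd2, Adora2a, Rarb and Isl1 was 33.5 to 70.3 CPM in the control, 39.1 and 145 CPM in dcKO_Nex-Cre replicates 1 and 2, and 31.9 and 27.7 CPM in dcKO_Nex-Cre replicates 3 and 4. None of these 5 genes was at 0 in a library, and none passed the test between the groups. The library with the highest sum was also the one with the highest Trpc7.

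**Figure D3:**
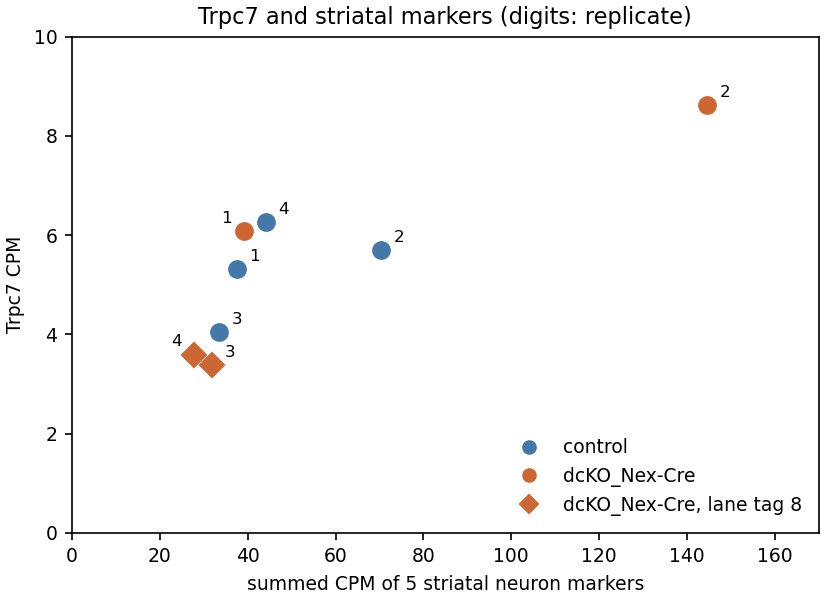
Trpc7 CPM against the summed CPM of 5 striatal neuron markers, with 1 point per library, digits for the replicate and diamonds for lane tag 8. dcKO_Nex-Cre replicate 2 stands at 145 and 8.62 CPM, and the 2 libraries of lane tag 8 have the lowest marker sums and the lowest Trpc7.

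Trpc2 had 0 counts in all 8 libraries, which allows up to 0.0852 to 0.167 CPM per library for counting error only. This limit holds only if reads on shared bases were assigned to it, because 2803 of its 2874 exon bases (97.5%) are also exon of Xntrpc on the same strand, and the other 71 are exon of Xndc1. Xntrpc, a readthrough gene joining Xndc1 and Trpc2, had 0.412, 0.438, 0.459 and 0.352 CPM in control replicates 1 to 4 and 0.522, 0.728, 0.578 and 1.18 CPM in dcKO_Nex-Cre replicates 1 to 4. All dcKO_Nex-Cre values were above all control values, on 8 to 21 counts per library. The log2 fold change of Xntrpc was 0.80, with a 95% confidence interval of 0.08 to 1.52, and it did not pass the test (adjusted p = 0.313 from edgeR). Its exact permutation p of 0.0286, two-sided, is the smallest that 4 against 4 libraries allow. This p follows from the separation of the groups and adds nothing to it, and the groups did not overlap in 8.0% of all genes tested. Xndc1 was at 11.4 ± 2.21 and 11.9 ± 1.07 CPM (SD, n = 4 each). Reads of Trpc2 and Xntrpc cannot be told apart in these counts. Of 4 olfactory markers, Omp had 2 to 13 and Cnga2 2 to 8 counts per library, whereas Gnal had 3474 to 10766 and Adcy3 340 to 916. Their sum, mostly Gnal, was 189 to 241 CPM in control and 231 to 339 CPM in dcKO_Nex-Cre libraries, and so does not measure Omp or Cnga2. Only Gnal and Adcy3 were tested, and neither was called. The part of these genes in the Xntrpc values was not tested.

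Trpc5 was selected on this contrast and is left out of the following counts. None of the 4 other members with counts passed an adjusted p of 0.05 in edgeR, beside 0.51% of all genes tested that passed as lower and 0.375% as higher. None had an unadjusted p under 0.05 in edgeR, beside 7.05% of all genes lower and 6.59% higher. DESeq2's Wald test and limma-voom called none of the 4, beside 3.16% of all genes that DESeq2 called in either direction. No member had groups that did not overlap, beside 8.0% of all genes. The median log2 fold change of the 4 members was -0.10, with 3 below 0 and 1 above, and that of all genes tested was 0.00.

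**Figure D4:**
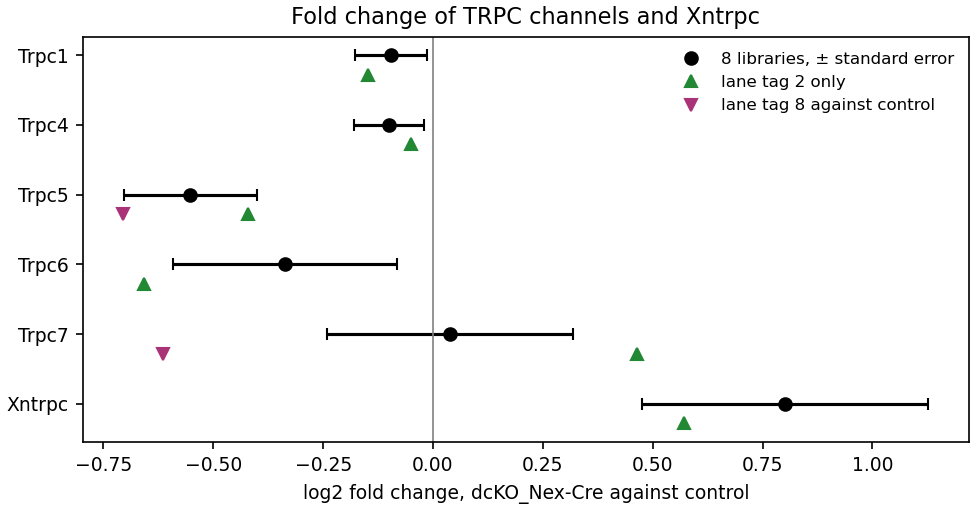
Log2 fold change of the TRPC channels and Xntrpc, dcKO_Nex-Cre against control, with black points for all 8 libraries and bars of 1 standard error. Green triangles show lane tag 2 only, and purple triangles the control against lane tag 8, for Trpc5 and Trpc7. Trpc5, selected on its lower counts in these samples, runs from -0.71 to -0.42, whereas Trpc7 runs from -0.61 to 0.47.

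The signaling route around the channels was read from 5 lists of 105 genes, of which 95 were tested. In edgeR none of them fell and 2 rose, Adra1a and Slc9a3r2, beside the 0.51% lower and 0.375% higher among all genes. DESeq2 called 3 lower and 4 higher, beside 3.16% of all genes in either direction. Counts at an unadjusted p under 0.05 in the lists stand beside 7.05% of all genes lower and 6.59% higher. The median log2 fold change of the 95 genes was -0.04.

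Among 27 tested receptors, G proteins and phospholipases C, Adra1a rose and none fell in edgeR. At an unadjusted p under 0.05, 3 were lower and 3 higher, and DESeq2 called Adra1a higher and Plcd1, a phospholipase C, lower. Plcd1 had a log2 fold change of -0.41 without overlap of the groups (adjusted p = 0.152 from edgeR). The largest decrease of the list was that of the receptor gene Htr2c, with overlap of the groups. It had a log2 fold change of -1.15 and did not pass (adjusted p = 0.156 from edgeR). Its levels were 22.9, 11.7, 20.4 and 31.1 CPM in control replicates 1 to 4. Summed choroid plexus markers (Ttr, Folr1, Kl, Clic6 and Aqp1) ranked alike, at 742, 17.3, 93.3 and 1343 CPM. In dcKO_Nex-Cre replicates 1 to 4, Htr2c had 11.5, 8.05, 14.0 and 4.995 CPM, against 15.5, 555, 7.22 and 3.93 CPM. Replicate 4 was lowest in both, but replicates 2 and 3 were in reverse order. The part of these cells in Htr2c was not tested. Adra1a, the Gq-coupled alpha-1A adrenergic receptor, had 1.05, 0.930, 1.001 and 1.06 CPM in control replicates 1 to 4 and 2.87, 2.03, 2.35 and 2.53 CPM in dcKO_Nex-Cre replicates 1 to 4. Every dcKO_Nex-Cre value was above every control value, and the log2 fold change was 1.27 with a standard error of 0.19 (adjusted p = 0.0162 from edgeR). The call did not hold in 4 of the 8 fits that leave out a library, those without control replicate 1, 3 or 4 or without dcKO_Nex-Cre replicate 3, nor in 1 of 7 other alternatives, the replicate block, with adjusted p from 0.000167 to 0.0779 over all of these edgeR, DESeq2 and limma fits. Nor did it hold in the 6 low-Xist libraries (adjusted p = 0.0564 from edgeR). Gnaq, the alpha subunit of Gq, was at 338 ± 21.01 and 377 ± 60.6 CPM (SD, n = 4 each; adjusted p = 0.542 from edgeR), and Ntrk2, the BDNF receptor, at 280 ± 25.1 and 313 ± 88.7 CPM (SD, n = 4 each; adjusted p = 0.711 from edgeR). The median log2 fold change of the list was 0.06.

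Of 16 genes for proteins that bind TRPC channels, Slc9a3r2 rose and none fell in edgeR. At an unadjusted p under 0.05, 3 were lower and 1 higher, and DESeq2 called Slc9a3r2 higher and Calm2 lower. Slc9a3r2 encodes the PDZ scaffold NHERF2, and it had 23.9, 21.8, 23.8 and 24.0 CPM in control replicates 1 to 4 and 30.8, 30.8, 28.6 and 30.5 CPM in dcKO_Nex-Cre replicates 1 to 4. The groups were apart in all libraries, with a log2 fold change of 0.37 and a standard error of 0.08 (adjusted p = 0.0496 from edgeR). This call lay at the threshold and held in 1 of 8 fits that leave out a library, the one without dcKO_Nex-Cre replicate 4, and in 3 of 7 other alternatives (adjusted p from 0.00113 to 0.174 in these edgeR, DESeq2 and limma fits). In the low-Xist libraries its adjusted p was 0.215 and with high Xist as a term 0.0693 in edgeR. Stmn2, which encodes the growth cone protein SCG10, was at 2243 ± 227 and 2013 ± 227 CPM (SD, n = 4 each; adjusted p = 0.538 from edgeR). Calm2 was at 931 to 1014 CPM in control and 717 to 874 CPM in dcKO_Nex-Cre libraries, without overlap, and did not pass in edgeR (log2 fold change -0.27, adjusted p = 0.179). The list's median was -0.04.

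None of 14 tested genes of calcium stores and store-operated entry passed, against 2 lower and 1 higher at an unadjusted p under 0.05 in edgeR and 1, Itpr1, called higher by DESeq2. Over all genes, 7.05% were lower and 6.59% higher at that p, and DESeq2 called 3.16% in either direction. Itpr1, the inositol trisphosphate receptor that releases stored calcium, had 97.9, 99.8, 112 and 97.5 CPM in control replicates 1 to 4 and 164, 119, 129 and 146 CPM in dcKO_Nex-Cre replicates 1 to 4. The groups did not overlap, but with a log2 fold change of 0.46 the gene did not pass (adjusted p = 0.0672 from edgeR). Itpr1 was called in edgeR without a filter and without dcKO_Nex-Cre replicate 4, but in no other fit that leaves out a library. The calcium pump gene Atp2a2 and Saraf, an inactivator of store-operated entry, had log2 fold changes of 0.08 and -0.02 (adjusted p = 0.791 and 0.950 from edgeR).

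None of 25 genes of calcium-dependent effectors passed, against 3 lower and 0 higher at an unadjusted p under 0.05 in edgeR (7.05% and 6.59% of all genes), and neither DESeq2 nor limma-voom called any. The calcineurin gene Ppp3cb, the calcium-dependent kinase gene Camk2b and the small GTPase gene Cdc42 had log2 fold changes of -0.02, -0.14 and -0.14 (adjusted p = 0.934, 0.553 and 0.460 from edgeR). The lowest adjusted p of this list was 0.249 in edgeR.

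Of 21 other TRP channels outside the canonical family, 13 were tested and none passed, against 2 lower and 1 higher at an unadjusted p under 0.05 in edgeR (7.05% and 6.59% of all genes). DESeq2 called Trpm3 lower and Trpv6 higher, beside 3.16% of all genes in either direction. The list's median log2 fold change was -0.25, with 11 genes below 0 and 2 above, where 50.9% of all genes tested were above 0. Trpm7, a channel with a kinase domain, was at 86.2 ± 8.22 and 81.1 ± 11.5 CPM (SD, n = 4 each; adjusted p = 0.735 from edgeR). The lysosomal channel gene Mcoln1 and the polycystin gene Pkd2 had log2 fold changes of -0.25 and 0.14 (adjusted p = 0.371 and 0.485 from edgeR). Trpv5 had no count.

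**Figure D5:**
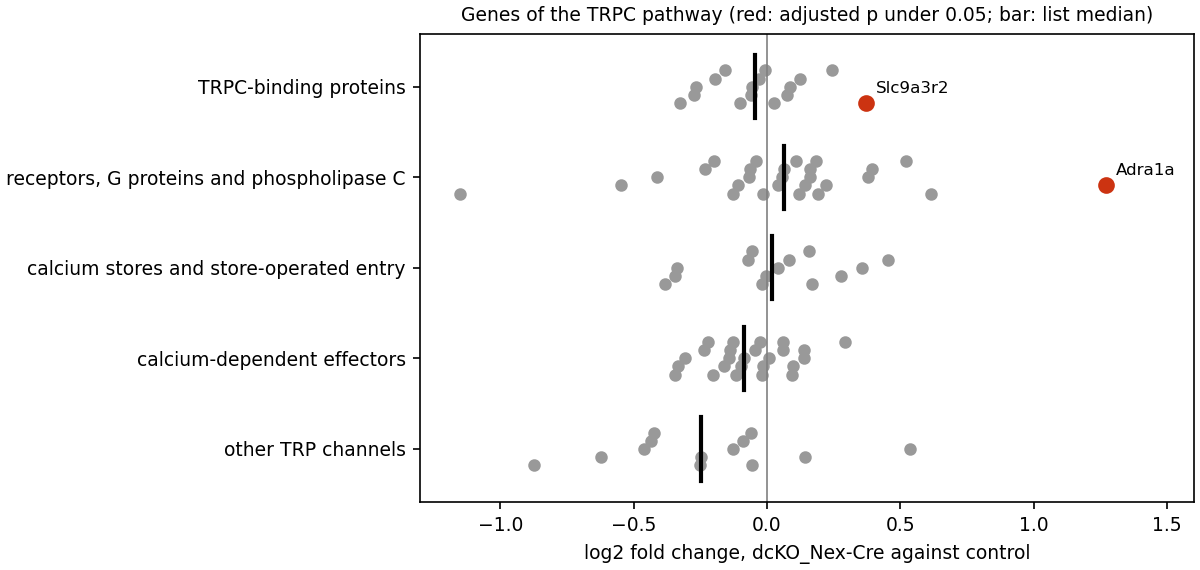
Log2 fold change of the 95 tested genes of the 5 TRPC pathway lists, dcKO_Nex-Cre against control, with 1 point per gene and a bar at each list's median. Red points have an adjusted p under 0.05 in edgeR, namely Adra1a at 1.27 and Slc9a3r2 at 0.37, and the list medians lie between -0.25 and 0.06.

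Across the 8 libraries, the genes whose log2 CPM followed that of Trpc5 most closely among 13276 genes compared were Boc, Sstr3, Faap100, Gm9866 and Cyp26b1. Boc, a co-receptor for sonic hedgehog, had a Pearson r of 0.986 (Spearman rho 0.976), and Sstr3, a somatostatin receptor, an r of 0.979 (rho 0.929). The values for Faap100, a Fanconi anemia core complex protein, Gm9866 and Cyp26b1, which degrades retinoic acid, were 0.978, 0.977 and 0.976. These are descriptions over libraries that share the 2 genotypes, so a difference between the groups enters each of them. Of the other members, Trpc4 followed Trpc5 most closely, with an r of 0.778 (rho 0.881), whereas r was 0.471 for Trpc6, 0.459 for Trpc1 and 0.165 for Trpc7.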

How the data were processed

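Total RNA of the whole P1 cortex was sequenced from 4 control and 4 dcKO_Nex-Cre samples after library preparation with the TruSeq RNA v2 kit, which does not mark strand. The deposited values are raw counts that the authors made for each sample by Ensembl gene, with no normalization. The submitters' processing notes name mm10, and the aligner, the counting program and its strand setting are not given in the sources used here. Of 48709 identifiers, 48349 were matched to GENCODE M21 on GRCm38, which gave positions and exon lengths for TPM.

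The counts were filtered by filterByExpr and TMM-normalized, and the groups were compared by the quasi-likelihood F test of edgeR 4.0.16 in R 4.3.3 (robust, two-sided, no covariate). P values were adjusted by Benjamini-Hochberg over 16287 genes with a threshold of 0.05. The biological coefficient of variation was 0.143. Confidence intervals are 95% intervals from the same fit. The exact permutation test used all 70 regroupings of CPM.

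Alternatives were DESeq2 1.42.0, DESeq2 size factors in edgeR, limma-voom (limma 3.58.1), no filter, at least 10 counts in every library, the replicate block, lane tag 2 only, each library left out and, for TPM, the longest transcript. Fits by lane tag 8 or by Xist (high: at least 1000 counts) were added after the data had been seen. The test was checked on simulated data with planted changes larger than those of the members and no differences of lane or sex. This check does not measure how well changes as small as those of the members would be found. Other steps used Python 3.11.15, with pandas 2.3.3, scipy 1.17.1 and matplotlib 3.10.9.

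The members and lists were chosen with earlier results of these data known. Besides the 6 members and the genes that overlap them, the text names from each list the genes with an adjusted p under 0.05 (at most 5), then those with the highest mean count until 3 are named. A few withheld items are left out of the text and of the counts of the lists. Genes most like Trpc5 are the 5 with the highest Pearson correlation of log2 CPM (prior count 2), and the 5 with the highest correlation of deviations from the group means, among genes with a mean of at least 50 counts. Htr2c, Plcd1, Trpm3 and Trpv6 were named after their values were seen.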

Additional observations from a re-analysis of the deposited data

How the results depend on the processing

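The log2 fold change of Trpc5 stayed below 0 in every alternative and ranged from -0.68 to -0.46 when a library was left out. Since Trpc5 was selected on its lower counts in these same samples, this sign is a description and no test. None of Trpc1, Trpc4, Trpc6 and Trpc7 was called in any alternative, with adjusted p from 0.213 to 0.991 in the edgeR, DESeq2 and limma fits, and Trpc1, Trpc4 and Trpc6 stayed below 0 in all of them. Trpc2 could not be fitted in any of them. Trpc7 changed sign to -0.0121 with limma-voom, -0.044 with the replicate block, -0.24 in the low-Xist libraries, -0.023 with high Xist as a term and -0.61 in lane tag 8, and it ranged from -0.27 to 0.21 when a library was left out. With the longest transcript, the control level moved to 18.5 TPM for Trpc1 and 30.7 TPM for Trpc4.

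The number of genes called, 144 in edgeR, was 494 with DESeq2, 259 without a filter, 54 with the replicate block, 248 in lane tag 2 only (108 lower and 140 higher), 40 in the low-Xist libraries and 18 to 1278 when a library was left out, the highest without dcKO_Nex-Cre replicate 4 and the lowest without control replicate 1. Of the pathway genes, 2 in edgeR, 7 were called with DESeq2 (3 lower and 4 higher), 1 with limma-voom, 0 with the replicate block, 1 in lane tag 2 only, 0 in the low-Xist libraries, 1 with high Xist as a term and 0 to 10 when a library was left out, again the highest without dcKO_Nex-Cre replicate 4 (5 lower and 5 higher). The cause of these changes was not tested. Same-numbered samples had correlations of deviations of 0.126, 0.0179, 0.135 and -0.138, and samples with unlike numbers ran from -0.292 to 0.371. These values show no pairing by replicate number. They cannot exclude one, since no samples known to be paired give a reference. Depth limits Trpc6 and Xntrpc, which had at most 40 and 21 counts per library, and Xntrpc had no value under the filter of 10 counts.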

Other observations

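When each library was set against the mean of its own group, so that the difference between the groups was taken out, other genes followed Trpc5. Pcdh7, a protocadherin, had a Pearson r of 0.994 (Spearman rho 0.952) over 8 libraries, Slc9a7, a sodium and proton exchanger, 0.992 (rho 0.952), and Chga, which encodes the secretory granule protein chromogranin A, 0.991 (rho 0.952). Ube2j1, a ubiquitin-conjugating enzyme of the endoplasmic reticulum, had an r of 0.989 and Plpp7 of 0.988. Their log2 fold changes between the groups lay from -0.10 for Ube2j1 to 0.11 for Plpp7. Among the members, Trpc4 had an r of 0.686 with Trpc5 on this measure, Trpc7 0.179, Trpc6 0.158 and Trpc1 0.084. These values are descriptions over 8 libraries, and the lane tags still differ within the dcKO_Nex-Cre group. Pcdh7, Slc9a7, Chga, Ube2j1 and Plpp7 are the highest of 13276 genes compared.

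Levels of Ttr, Folr1, Kl, Clic6 and Aqp1, markers of the choroid plexus, differed widely between libraries, with a sum of 17.3 to 1343 CPM in the control and 3.93 to 555 CPM in the dcKO_Nex-Cre cortex. The library with the lowest sum in each group was also the lowest of its group in Trpc5, namely control replicate 2 at 10.7 CPM and dcKO_Nex-Cre replicate 4 at 7.24 CPM of Trpc5. Both also had the lowest total counts of their group, 18737230 and 17958641. The other libraries did not keep this order. dcKO_Nex-Cre replicate 1 had the highest Trpc5 of its group, 11.2 CPM, at a sum of 15.5 CPM. dcKO_Nex-Cre replicate 2, with the highest sum, had 8.43 CPM of Trpc5. In the control, replicate 4 had the highest sum and replicate 1 the highest Trpc5. The part of these cells in the Trpc5 values was not tested.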
